A study of Mus musculus with 8 samples.

Results

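Genes of arginine and citrulline metabolism, protein citrullination and nitric oxide signaling were examined in the adult mouse frontal cortex, and 9 of a list of 10 are described: Ass1, Asl, Padi2, Nos1, Nos1ap, Ddah1, Ddah2, Gatm and Slc7a1. The count table holds 55536 genes, and all 9 had reads. The list was chosen on results of these same libraries, because Ass1 and Padi2 had already been called as different between the genotypes. Every comparison of the 9 genes between genotypes is therefore a description of these libraries, and no test is drawn from it.

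The libraries came from frontal cortex of mice aged 8 weeks, 4 labeled WT and 4 labeled HAR123-KO. In the HAR123-KO mice the mouse counterpart of HAR123, an enhancer within an intron of Smg6, had been deleted by CRISPR-Cas9 in C57BL/6J embryos. The WT controls were littermates that carry no deletion. The labels give no treatment for either group. The sources used here do not state how many founder lines were sequenced, nor whether each library was a separate animal, so the spread between libraries may be partly technical.

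Arginine stands at a branch point in brain metabolism. Nitric oxide synthase converts it to nitric oxide and citrulline, and Ass1 and Asl rebuild arginine from that citrulline through argininosuccinate, the pair of reactions called the citrulline-nitric oxide cycle. Gatm passes the guanidino group of arginine to glycine on the way to creatine, Slc7a1 carries it into cells, and the Ddah enzymes clear the methylated arginines that inhibit nitric oxide synthase. Padi2 acts on arginine already built into protein: it turns the residue into citrulline, and in the brain it is known for oligodendrocytes and for myelin basic protein as its substrate.

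Ass1 and Padi2 were the genes of the list that stood apart between the genotypes, so the sequence just upstream of each is shown. The bases run 5′ to 3′ on the plus strand from RefSeq on GRCm38.p6, and capitals mark each CpG. The Ass1 stretch is chr2:31470020-31470206 and the Padi2 stretch is chr4:140906110-140906343. Each ends at the base before the annotated gene start.
Ass1: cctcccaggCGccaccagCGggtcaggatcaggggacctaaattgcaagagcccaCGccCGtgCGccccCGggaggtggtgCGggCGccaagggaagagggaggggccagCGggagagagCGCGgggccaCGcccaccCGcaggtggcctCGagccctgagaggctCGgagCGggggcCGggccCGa
Padi2: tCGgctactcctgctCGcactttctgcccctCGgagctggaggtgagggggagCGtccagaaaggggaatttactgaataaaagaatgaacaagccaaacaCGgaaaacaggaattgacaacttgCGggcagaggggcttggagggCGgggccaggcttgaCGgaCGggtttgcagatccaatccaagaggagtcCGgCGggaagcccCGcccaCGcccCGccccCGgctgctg
The Ass1 stretch holds 18 CpG in 187 bases and the Padi2 stretch 15 CpG in 234 bases. RefSeq promoter windows of 300 bases, from 250 before to 50 after a start, were found for 8 of the 9 genes, all but Asl. Across all 27025 windows the median was 7 CpG. The whole Ass1 window held 27 CpG and the whole Padi2 window 22. Ddah1 (23 CpG), Gatm (22) and the upstream Slc7a1 window (27) lay in the same range. Of the Nos1ap windows the upstream held 39 and the downstream 5, Ddah2 held 12, and Nos1 held 6. The Nos1 window, chr5:117866589-117866888, lies inside the annotated gene, downstream of its start at 117781032, and no window was found at that start. Short motifs were searched on both strands. The letters GGGCGG, the GC box, occurred once or more in the windows of Ass1, Padi2, Nos1ap, Ddah2 and Slc7a1, against 35.9% of all windows. The letters TATAAA occurred in a second, downstream Slc7a1 window with 7 CpG, against 14.2% of all windows. The letters CCAAT occurred in windows of Padi2, Nos1ap, Gatm and Slc7a1, against 37.9% of all windows, and CACGTG in that of Ass1, against 7.2%. The Ass1 matches lie downstream of the printed stretch.

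Values below are normalized read counts, meaning exon reads divided by a median-of-ratios size factor for the library. Library totals ran from 13528251 to 17051001 reads. A noncoding row, Gm42418, took 55.1% to 58.0% of them, and nuclear protein-coding genes had 2786320 to 3732172 reads. The 9 genes were therefore counted in modest numbers, from 15 reads of Ddah2 in the lowest case to 490 reads of Nos1ap. Fold changes are HAR123-KO against WT on the log2 scale from DESeq2, with the standard error (SE). A gene was called when its adjusted p was under 0.05 and its absolute log2 fold change over 0.5.

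**Figure D1:**
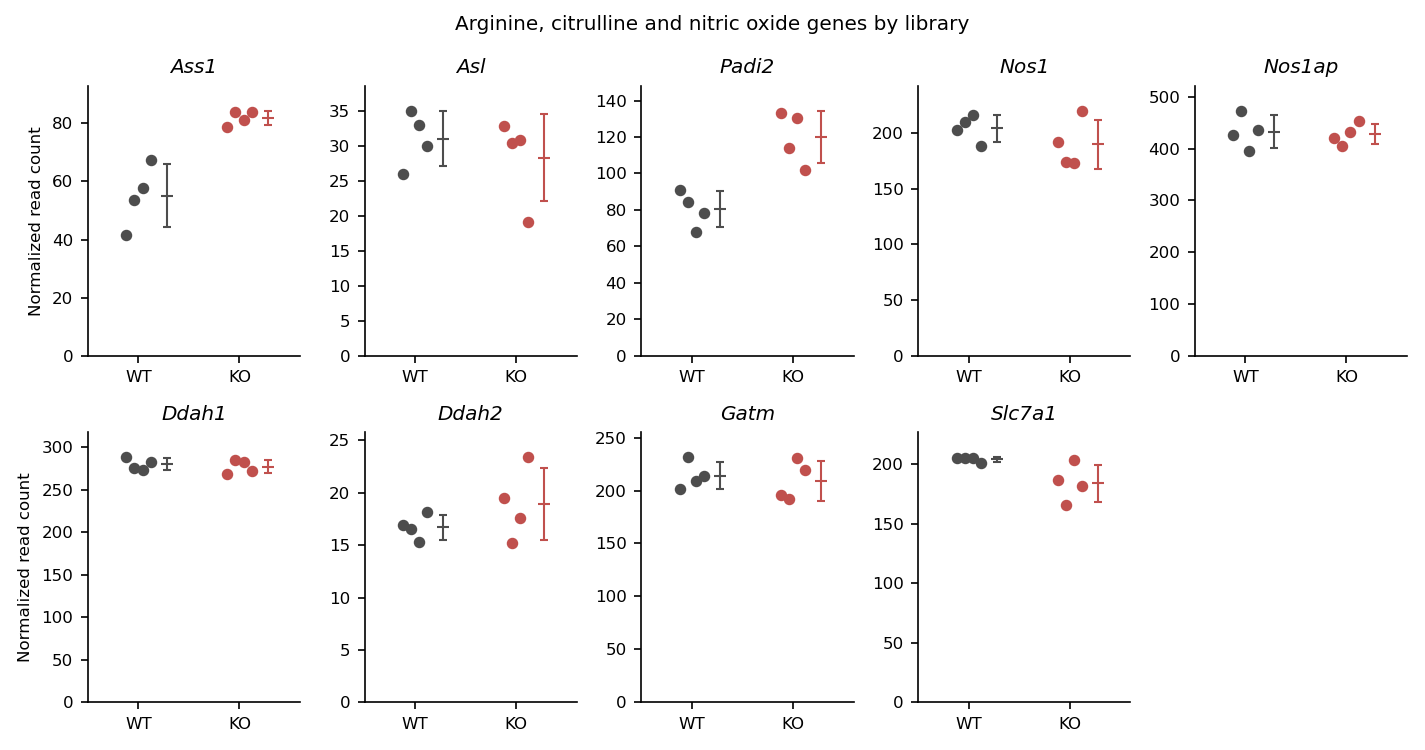
Normalized read count (y axis, starting at 0) of each gene in the 4 WT and 4 HAR123-KO libraries; points are libraries and the bar beside them is the mean ± SD. Ass1 and Padi2 are the panels in which no WT library reaches the lowest HAR123-KO library.

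Ass1 (ENSMUSG00000076441, chr2:31470207-31520672, plus strand) encodes argininosuccinate synthase, which joins citrulline to aspartate. Normalized counts were 41.7, 53.5, 57.6 and 67.4 in the WT libraries and 78.8, 83.7, 81.0 and 84.0 in the HAR123-KO libraries. The HAR123-KO libraries all lay above the WT libraries and were close together, whereas the WT libraries were spread. The means were 55.1 ± 10.7 and 81.9 ± 2.44 (mean ± SD, n = 4 each), a ratio of 1.49. On the log2 scale the fold change was 0.57 ± 0.16 (SE, 95% interval 0.25 to 0.88). The DESeq2 adjusted p in the fit made here was 0.028. An earlier call of Ass1 in these libraries brought it into the list, so this value does not test it. The HAR123-KO coefficient of variation was 2.98%, smaller than the 10.9% that counting alone would give at this depth, so the tightness of those 4 values is not a measure of precision. With single libraries left out the log2 fold change ran from 0.46, without WT replicate 1, to 0.67, without WT replicate 4. The call was lost without WT replicate 1 (adjusted p = 0.385 in DESeq2), replicate 2 (0.162) or replicate 3 (0.0656). It was also lost without HAR123-KO replicate 1 (0.0671), replicate 2 (0.148) or replicate 3 (0.113), and without HAR123-KO replicate 4 DESeq2 gave Ass1 no adjusted p. It was kept without WT replicate 4 (0.0155).

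Reads of Ass1 can be hard to tell from those of a copy. Of the 50-base windows in its annotated exons, 38.62% occur unchanged in Gm5424, a processed pseudogene of Ass1 on another chromosome (chr10:62071123-62072362), which is named here after its values were seen. Gm5424 had raw counts of 8, 9, 19 and 13 in WT and 12, 8, 21 and 20 in HAR123-KO, and its genotypes overlapped. When the rows were summed, the normalized counts were 67.1 ± 13.3 in WT and 96.8 ± 6.88 in HAR123-KO (mean ± SD, n = 4 each) and again did not overlap. The log2 fold change of the sum was 0.52 ± 0.15 (SE). How the authors' counting divided reads between the copies was not stated.

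Asl (ENSMUSG00000025533, chr5:130011258-130029247, minus strand) encodes argininosuccinate lyase, the next enzyme of the cycle, which releases arginine and fumarate. The 4 WT libraries had normalized counts of 25.9, 35.0, 33.0 and 30, and the HAR123-KO libraries 32.8, 30.4, 30.8 and 19.1. The genotypes overlapped, and HAR123-KO replicate 4 was the lowest of the 8 libraries. Its log2 fold change was -0.13 ± 0.24 (SE; 95% interval -0.61 to 0.35), with 18 to 39 reads counted per library. Without HAR123-KO replicate 4 it was 0.01. Set against Asl per kilobase (kb) of exon, Ass1 was 3.22, 3.06, 3.49 and 4.5 times as abundant in the WT libraries and 4.82, 5.50, 5.26 and 8.78 times in the HAR123-KO libraries. The ratios of the genotypes did not overlap, although the lowest HAR123-KO ratio and the highest WT ratio were near each other.

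Padi2 (ENSMUSG00000028927, chr4:140906344-140952586, plus strand) encodes the peptidylarginine deiminase found most widely in the brain. Padi2 had normalized counts of 91.2, 84.4, 67.8 and 78.1 in WT and 133.1, 114.1, 130.3 and 102.1 in HAR123-KO. All HAR123-KO libraries were above all WT libraries, with replicate 4 the nearest to them. The means were 80.4 ± 9.95 and 120 ± 14.5 (mean ± SD, n = 4 each), a ratio of 1.49, the same to this precision as that of Ass1. The difference was a log2 fold change of 0.59 ± 0.14 (SE, 95% interval 0.32 to 0.86). The DESeq2 adjusted p in the fit made here was 0.00181, and Padi2 too had been listed for an earlier call in these libraries. With each library left out in turn the fold change ran from 0.51 to 0.66 and the call was kept.

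The other deiminase genes were at or near 0 in this tissue. Padi3 and Padi4 had no reads in any library, Padi1 had a normalized count of 1.0 in HAR123-KO replicate 1 and 0 elsewhere, and Padi6 had 3.01 ± 2.84 in WT and 3.89 ± 0.687 in HAR123-KO (mean ± SD, n = 4 each). Padi2 thus made up nearly all reads of its family in both genotypes.

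Because Padi2 is known from oligodendrocytes, its values were set beside 12 mature oligodendrocyte markers (among them Mog, Mag, Mobp, Cnp, Cldn11, Mal, Ermn, Aspa, Ugt8a, Opalin and Tspan2). All 12 were detected. Their summed normalized count was 10212 to 10444 in WT and 11282 to 11498 in HAR123-KO, 1.11 times as high. Of the 12, 4 were higher in every HAR123-KO library, Cnp, Cldn11 and Tspan2 among them. Over all genes given an adjusted p, 7.67% had no overlap between the genotypes in either direction. Per 1000 marker counts, Padi2 was 8.93, 8.20, 6.49 and 7.58 in WT and 11.6, 9.97, 11.3 and 9.05 in HAR123-KO. These ratios did not overlap either, so Padi2 differed by more than the marker sum did. The ratio of the means was 0.43 on the log2 scale. Against Mbp alone, which encodes myelin basic protein, Padi2 was 14.4, 12.8, 10.4 and 11.6 per 1000 Mbp counts in WT and 18.1, 15.4, 17.3 and 13.8 in HAR123-KO. By that measure the lowest HAR123-KO library fell below the highest WT library. In bulk tissue, a difference in the number of cells of a type and a difference in RNA per cell cannot be told apart.

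**Figure D2:**
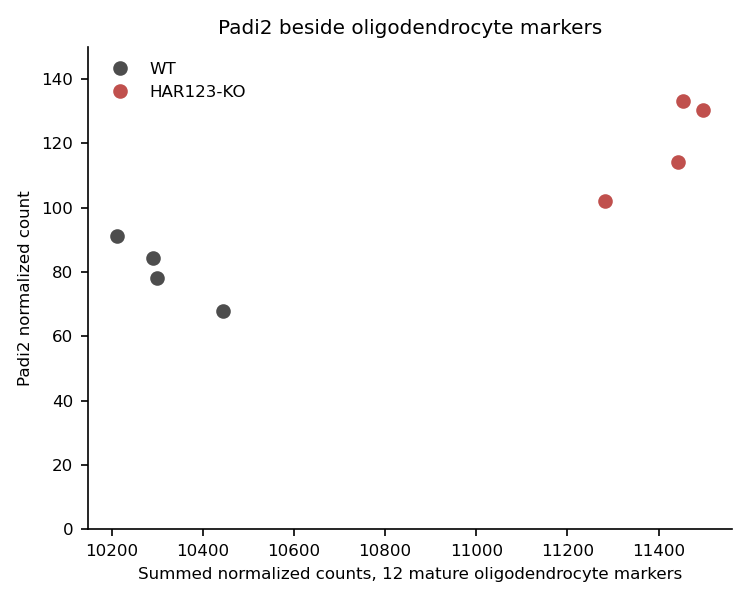
Padi2 normalized count (y axis) against the summed normalized count of 12 mature oligodendrocyte markers (x axis, not starting at 0); each point is a library. The genotypes are separated on both axes: the marker sum is 1.11 times and Padi2 1.49 times as high in HAR123-KO.

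Marker sums of several other cell types also stood apart between the genotypes. The counts of single markers below stand beside 7.67% of all genes without overlap between the genotypes, in either direction. A count of 1 marker in a short list is near that share. Choroid plexus markers summed to 88 to 97 in WT and 710 to 753 in HAR123-KO, with 8 of 8 markers higher in every HAR123-KO library. Ttr made up most of that sum, with a mean of 68.2 of 93.3 in WT and 641 of 733 in HAR123-KO, and most of the other choroid plexus markers had few reads. Striatal projection neuron markers summed to 4307 to 4448 and 5714 to 5886, with 7 of 9 higher. Sums of cortical projection neuron markers were lower (6881 to 7161 against 6312 to 6639), with 2 of 8 markers lower in every HAR123-KO library. Astrocyte sums (22824 to 23607 against 21344 to 21935, 3 of 8 lower) and endothelial sums (517 to 549 against 447 to 481, 1 of 8 lower) were lower too. Slc17a7 and Slc1a2, the most abundant markers of the cortical and astrocyte lists, made up much of those sums, whereas Bcl11b and Aldoc, of the same lists, had ratios of 1.07 and 0.995. Interneuron sums were 1897 to 1958 against 1975 to 2059 (1 of 6 higher), and oligodendrocyte precursor sums 457 to 496 against 500 to 541 (0 of 4 higher). Mural sums (334 to 393 against 371 to 386, 1 of 5 lower) and microglia sums (947 to 1017 against 914 to 970, 0 of 6 lower) overlapped. Every marker had reads in at least 1 library, and the choroid plexus markers Kcne2, Otx2 and Aqp1 were at 0 in 1 or more WT libraries. The part of these differences in the Ass1 and Padi2 values was not tested.

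Nos1 (ENSMUSG00000029361, chr5:117781032-117958840, plus strand) encodes the neuronal nitric oxide synthase. Nos1 counts, normalized, were 202.6, 210.0, 216.1 and 188.3 in WT and 191.5, 174.0, 173.4 and 220.1 in HAR123-KO. HAR123-KO replicate 4 was the highest of all libraries and HAR123-KO replicates 2 and 3 the lowest, so HAR123-KO spanned the whole WT range. Nos1 had a log2 fold change of -0.11 ± 0.10 (SE; 95% interval -0.30 to 0.07). In cortex Nos1 is known from a class of long-range Sst interneurons, and the summed count of 4 markers of that class (Chodl, Sst, Npy and Tacr1) was 507 to 589 in WT and 512 to 612 in HAR123-KO. Most of that sum was Sst and Npy, with means of 377 and 154 in WT, and these also mark other interneurons. Chodl, the marker most particular to the class, had 1 to 6 reads per library, so the sum says little about that class.

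Nos1ap (ENSMUSG00000038473, chr1:170302668-170589861, minus strand) encodes an adaptor that binds the PDZ domain of Nos1. Normalized Nos1ap counts were 426.7, 473.6, 395.7 and 435.4 in WT and 420.8, 406.0, 431.4 and 453.0 in HAR123-KO. The HAR123-KO values all lay inside the WT range. Nos1ap had a log2 fold change of -0.01 ± 0.07 (SE; 95% interval -0.14 to 0.11). Per kb of exon, Nos1ap was 3.27 ± 0.331 times Nos1 in WT and 3.49 ± 0.283 times in HAR123-KO (mean ± SD, n = 4 each), with overlap. Its exons share 171 bases with Gm7694 on the same strand, a gene with 8 to 23 reads.

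Ddah1 and Ddah2 encode dimethylarginine dimethylaminohydrolases. Ddah1 (ENSMUSG00000028194, chr3:145758675-145894277, plus strand) had normalized counts of 288.2, 274.9, 272.8 and 282.4 in WT and 268.2, 284.3, 282.6 and 272.3 in HAR123-KO. The libraries of the genotypes overlapped, with a log2 fold change of -0.01 ± 0.08 (SE; 95% interval -0.16 to 0.14). Ddah2 (ENSMUSG00000007039, chr17:35059035-35062095, plus strand) had 16.9, 16.5, 15.3 and 18.2 in WT and 19.5, 15.2, 17.6 and 23.4 in HAR123-KO. With 15 to 22 reads per library its log2 fold change of 0.18 ± 0.31 (SE) had a 95% interval of -0.43 to 0.79, so a difference of the size seen for Ass1 was not detectable at this depth. Per kb, Ddah1 was 6.72 ± 0.392 times Ddah2 in WT and 6.02 ± 1.21 times in HAR123-KO (mean ± SD, n = 4 each), with overlap.

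Gatm (ENSMUSG00000027199, chr2:122594467-122611303, minus strand) encodes glycine amidinotransferase. Gatm was counted at 201.5, 231.6, 209.3 and 214.0 in WT and 195.6, 192.1, 230.7 and 219.1 in HAR123-KO (normalized counts), with overlap. Its log2 fold change was -0.03 ± 0.09 (SE; 95% interval -0.21 to 0.15).

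Slc7a1 (ENSMUSG00000041313, chr5:148327410-148399904, minus strand) encodes CAT-1, a carrier of arginine and other cationic amino acids. Its normalized count was 204.9, 204.9, 205.0 and 201.1 in WT and 186.3, 165.4, 203.4 and 181.9 in HAR123-KO. Of the HAR123-KO libraries, 3 lay below the WT range and replicate 3 lay within it. Slc7a1 had a log2 fold change of -0.15 ± 0.09 (SE; 95% interval -0.33 to 0.04). The WT coefficient of variation of 0.938% was far below the 7.02% that counting gives. The related carriers Slc7a2 and Slc7a3 had log2 fold changes of 0.21 ± 0.13 and -0.03 ± 0.31 (SE).

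**Figure D3:**
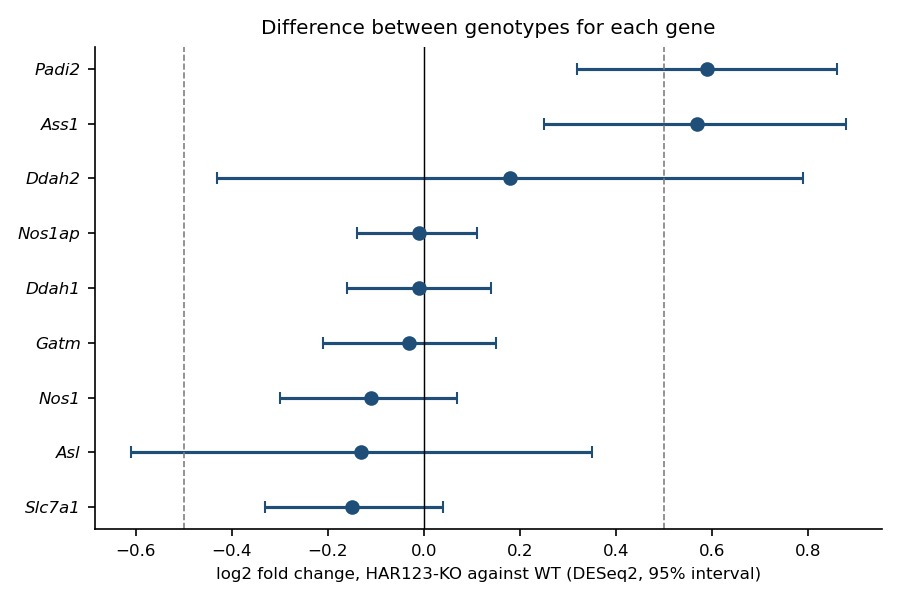
DESeq2 log2 fold change of HAR123-KO against WT (x axis) with its 95% interval for each gene; the dashed lines mark 0.5 in either direction. Padi2 and Ass1 have intervals that lie above 0, and the widest intervals belong to Ddah2 and Asl, the genes with the fewest reads.

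All 9 genes were given an adjusted p and 2 were called, Ass1 and Padi2, both higher in HAR123-KO. Over all 12758 genes given an adjusted p, 38 were called, or 0.298%. The same 2 genes were those without overlap between the genotypes, against 7.67% of all genes. Earlier calls of these same genes in these libraries put the list together, so nothing is read from the shares. The median log2 fold change of the 9 genes was -0.015, beside -0.002 for all genes, with 3 positive and 6 negative.

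Levels can be set beside each other only per length of exon. In WT the order of normalized counts per kb was Gatm (71.3), Ddah1 (70.2), Nos1ap (59.7), Ass1 (22.8), Nos1 (18.3), Slc7a1 (17.7), Padi2 (16.0), Ddah2 (10.5) and Asl (6.41). Library ranges of Gatm and Ddah1 overlapped, as did those of each neighbor from Ass1 through Nos1 and Slc7a1 to Padi2, so these neighbors did not differ beyond their spread. In HAR123-KO the first 4 places were the same, with Ass1 at 33.9 per kb. Padi2, at 23.9, stood in the fifth place, above Nos1 (17.0) and Slc7a1 (16.0) and apart from its neighbors on either side. The order depends on the length used: with the longest transcript in place of all exons, 3 of 9 places in the order over all libraries stayed as they were and Nos1ap came first.

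**Figure D4:**
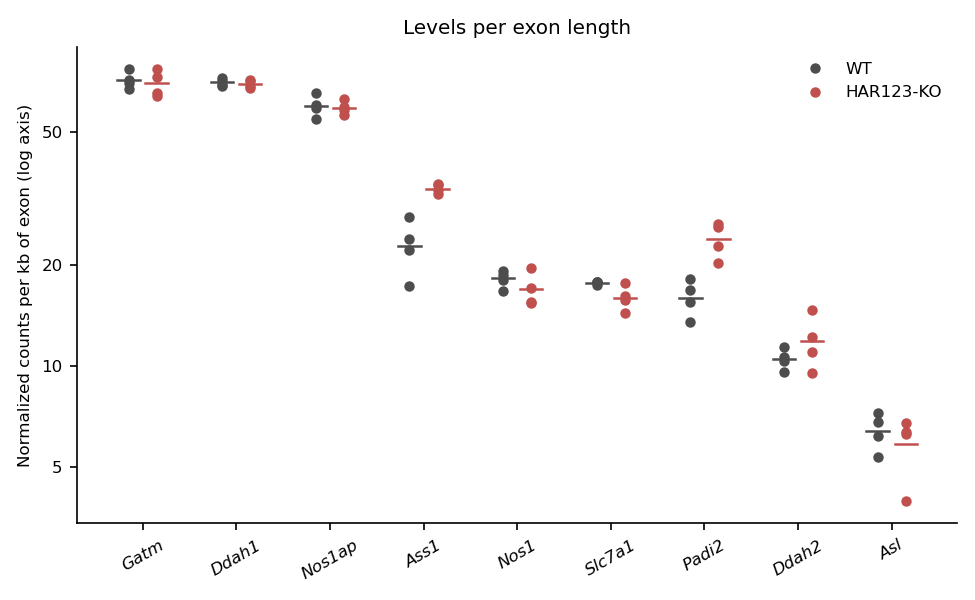
Normalized counts per kb of exon (log y axis) for each gene, ordered by the WT mean; points are libraries and lines are means, WT and HAR123-KO side by side. Gatm, Ddah1 and Nos1ap sit above 50 per kb in both genotypes, and Padi2 moves from the level of Slc7a1 in WT to a place above Nos1 in HAR123-KO.

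The rest of the pathway was followed in 102 further genes listed by role. Of these, 101 had a row, 93 had reads and 75 were given an adjusted p. None of the 75 was called by DESeq2 with the minimum fold change, nor by edgeR or limma-voom, beside the 0.298% of all genes. With DESeq2 adjusted p under 0.05 and no minimum fold change, 2 were higher and 3 lower, that is 5 of 75, against 1.69% of all genes. At an unadjusted p under 0.05, 4 were higher and 7 lower, that is 11 of 75, against 8.78% of all genes. Their median log2 fold change was -0.004. Without overlap between genotypes were 6 of the 75 that were higher and 7 of the 75 that were lower, against 7.67% of all genes. At these looser limits the shares of the pathway genes were above those of all genes, and the reason was not tested.

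**Figure D5:**
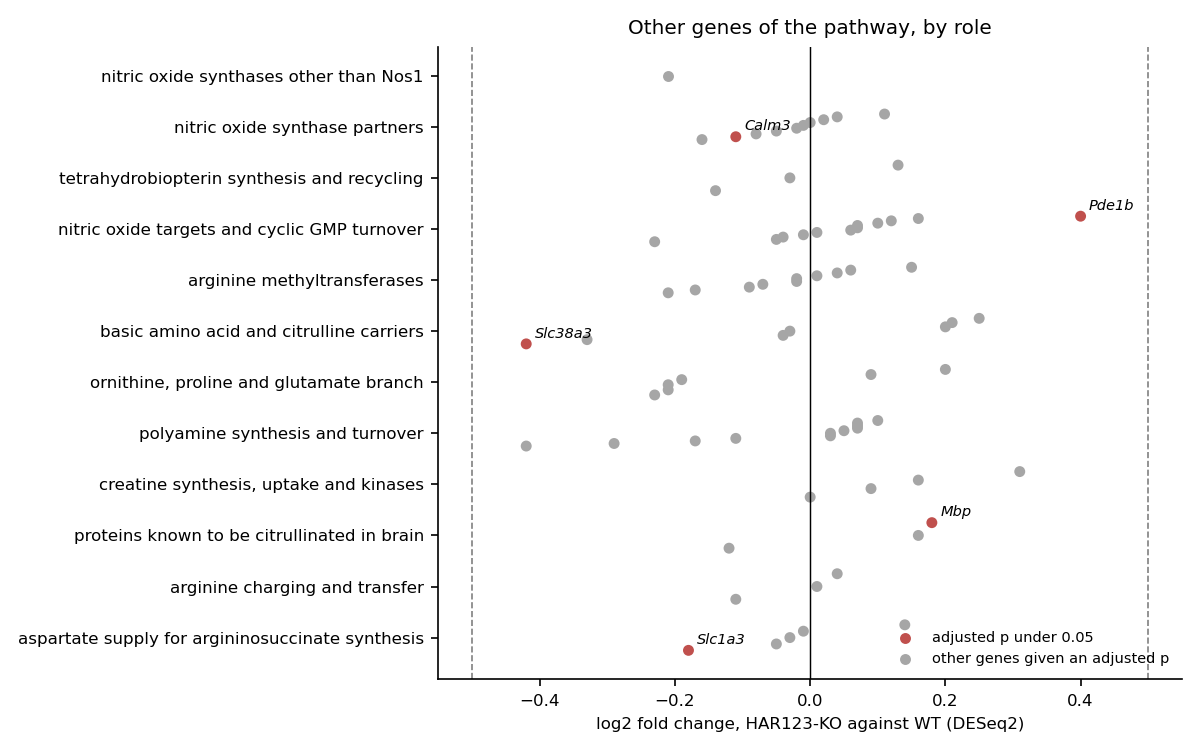
DESeq2 log2 fold change of HAR123-KO against WT (x axis) of the 75 further pathway genes given an adjusted p, by role (y axis); red points have an adjusted p under 0.05 and are named, and dashed lines mark 0.5 in either direction. No point lies beyond the dashed lines, and the named genes run from -0.42 for Slc38a3 to 0.40 for Pde1b.

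Among genes of nitric oxide signaling, Pde1b rose. It encodes a calmodulin-dependent phosphodiesterase that hydrolyzes cyclic GMP and cyclic AMP, and it is abundant in striatal neurons. Its normalized count was 848.9, 844.2, 836.3 and 872.9 in WT and 1104, 1153, 1093 and 1141 in HAR123-KO, with no overlap. The log2 fold change was 0.40 ± 0.04 (SE, with a DESeq2 adjusted p of 2.65e-17). Per 1000 counts of the 9 striatal projection neuron markers Pde1b was 193 ± 2.81 in WT and 193 ± 6.31 in HAR123-KO (mean ± SD, n = 4 each). The other 11 genes of the nitric oxide target and cyclic GMP group did not pass an adjusted p of 0.05. Calm3, one of the genes for calmodulin, which nitric oxide synthase needs, fell with a log2 fold change of -0.11 ± 0.03 (SE, with a DESeq2 adjusted p of 0.00525). Calm2, the most abundant synthase partner per kb, had normalized counts of 3520 in WT and 3510 in HAR123-KO. Nos3, the endothelial synthase, had normalized counts of 24.4 ± 2.93 in WT and 21.1 ± 4.15 in HAR123-KO (mean ± SD, n = 4 each), and Nos2, the inducible synthase, stayed at 2.1 or below in every library. Of the enzymes that make and recycle the cofactor tetrahydrobiopterin, Qdpr was the most abundant per kb, with normalized counts of 290 in WT and 318 in HAR123-KO, and Gch1 had 4.3 normalized counts or less in each library.

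Of the carriers, Slc38a3 fell. It encodes a transporter of glutamine known from astrocytes, so its main substrate is not arginine. Its normalized count was 256.7, 258.4, 261.0 and 250.3 in WT and 183.3, 197.8, 198.1 and 189.3 in HAR123-KO, with no overlap. The log2 fold change was -0.42 ± 0.09 (SE, with a DESeq2 adjusted p of 0.000245). Per 1000 astrocyte marker counts it was 11.1 ± 0.116 in WT and 8.91 ± 0.406 in HAR123-KO (mean ± SD, n = 4 each), also without overlap. Slc1a3, an astrocyte carrier of glutamate and aspartate that was listed for aspartate supply to Ass1, fell with a log2 fold change of -0.18 ± 0.04 (SE, with a DESeq2 adjusted p of 0.000288). Mbp, listed as a substrate of citrullination, rose by 0.18 ± 0.02 (SE, with a DESeq2 adjusted p of 2.27e-12). Per 1000 mature oligodendrocyte marker counts Mbp was 634 ± 15.3 in WT and 651 ± 8.04 in HAR123-KO (mean ± SD, n = 4 each), with overlap. Slc3a2 led the carriers per kb, with normalized counts of 253 in WT and 247 in HAR123-KO, and Got1 the genes of aspartate supply, with 763 and 746.

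The remaining roles held no gene with an adjusted p under 0.05. For arginine methylation, whose products Ddah1 and Ddah2 clear, Carm1 had the smallest unadjusted p of 10 methyltransferases, with a log2 fold change of -0.21 ± 0.09 (SE, with a DESeq2 adjusted p of 0.38), and Prmt8 was the most abundant per kb. For ornithine and proline, Oat, the ornithine aminotransferase, had a log2 fold change of -0.21 ± 0.11 (SE). For polyamines, Sat1 had -0.29 ± 0.16 (SE), and Oaz1 was the most abundant per kb. For creatine, downstream of Gatm, the kinase Ckb had a normalized count of 2880 in both genotypes and the creatine carrier Slc6a8 had a log2 fold change of 0.16 ± 0.08 (SE). Ate1 was the most abundant per kb of the genes for arginine charging and transfer, with normalized counts of 264 in WT and 265 in HAR123-KO. Agmat, which splits decarboxylated arginine, was barely detected, with means of 4.77 and 2.95. Otc, the liver enzyme that makes citrulline, had no reads in any library.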

How the data were processed

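The authors sequenced rRNA-depleted total RNA as paired-end directional libraries. Per the labels, reads were aligned with STAR 2.5.2b to GRCm38, and featureCounts gave the deposited raw counts per gene; strand and multi-mapping settings are not given in the sources used here. Gene IDs were named from GENCODE M21 (55536 of 55536 found). All genes were fitted with DESeq2 1.42.0 in R 4.3.3 on genotype alone, 4 libraries each, with its independent filter (mean 17.6 normalized counts, tuned to 0.1). Alternatives used edgeR 4.0.16, limma 3.58.1, other size factors and filters, and single libraries left out. Scripts were tested on simulated data. Replicate pairs within a genotype differed by more than counting noise (chi-square per degree of freedom 1.21 to 1.3), so no pair was treated as repeat deposits of the same library; this does not show that they came from separate animals. Of the list of 10 genes, 1 is not reported here. Members and lists were chosen with earlier results of these data known. Genes named besides these were the most abundant per kb and the smallest p of each role, paralogs and any called gene; others were named after their values were seen. Intervals cover 95%.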

Additional observations from a re-analysis of the deposited data

Results flagged for a closer look

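Slc7a1 in WT replicate 4 had a normalized count of 201.1, whereas the other 3 WT libraries lay between 204.9 and 205.0. The gap was 0.956 of the range of the 4 libraries, above the critical value for 4 samples, because the other libraries were so close together. Of 18 groups of 4 libraries examined this was the 1 that stood out, and chance gives about 0.9, at 1 in 20.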

How the results depend on the processing

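Padi2 kept its call in 15 of 16 alternative fits and Ass1 in 6 of the 15 that gave it an adjusted p. Ass1 kept it with edgeR (adjusted p = 0.00841), limma-voom (0.0147), both other size factors and the sum with Gm5424, an alternative added after seeing the data. The number of the 9 genes called was 1 in place of 2 with a minimum of 10 counts in 4 libraries (Ass1 adjusted p = 0.0568 in DESeq2) and with the independent filter off (0.0616). It was 0 at adjusted p under 0.01 with log2 fold change over 1, and 0 with the replicate block, where both genes had an adjusted p of 1 in DESeq2 at log2 fold changes of 0.59 for Ass1 and 0.58 for Padi2. Correlations of same-numbered libraries ran from -0.018 to 0.014, so no pairing by replicate number was visible. Most of the spread within a genotype was counting noise (chi-square per degree of freedom 1.21 to 1.3). The correlations therefore cannot exclude a pairing, and whether the block is the better fit was not tested. Leaving out single libraries gave 1 to 2 of the 9 genes and 11 to 44 genes over the whole table, with 18 without WT replicate 3 and 11 without HAR123-KO replicate 4, against 38. The whole table gave 73 with edgeR, 9 with the replicate block, 215 with no minimum fold change and 3 at the stricter limits. The 102 further pathway genes gave 0 in every alternative except the one with no minimum fold change, which gave 5. Genes near 0 changed sign when single libraries were left out, over ranges of -0.203 to 0.009 for Asl, -0.059 to 0.032 for Nos1ap, -0.024 to 0.004 for Ddah1 and -0.084 to 0.01 for Gatm. In the order of levels, 3 of 9 places stayed with the longest transcript as length. Padi2 per oligodendrocyte marker count kept its direction throughout, from 0.349 to 0.499 with libraries left out. Depth limits Ddah2 and Asl most. The causes were not tested.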
